A study of Mus musculus with 27 samples.

Results

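Messenger RNA of mouse embryonic fibroblasts was compared between 2 lines, both 24 h after 10 Gy of gamma radiation. The line titled R carries, per its description, a PKBalpha knockout background with PKBalpha reconstituted. It was set against the PKBalpha -/- knockout, with 3 arrays a line, which are 6 of the 27 arrays in the series. The same 2 lines untreated and 4 h after irradiation, and a wild-type PKBalpha line untreated and at 24 h, are used beside them, again with 3 arrays a group. The main test estimated the spread over all 27 arrays, which include the wild-type line at 4 h. All cells were female and at passage 45, and the labels call the 3 arrays of a group biological replicates without saying whether they came from separate cultures. Each genotype was 1 line, so p values measure how arrays of a single line vary, and genotype and line cannot be told apart. How PKBalpha was put back, and under which promoter, is not given in the sources used here.

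PKBalpha, encoded by Akt1, is a serine/threonine kinase that PI3 kinase recruits to the cell membrane after growth factor signals. It favours survival, growth and anabolic metabolism, in part by holding FOXO transcription factors out of the nucleus and by relieving the TSC brake on mTOR. Gamma radiation breaks DNA and activates p53, which in fibroblasts drives arrest genes such as Cdkn1a.

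Values are array intensities without a unit. Differences are line R minus knockout in log2 units, each with its standard error (SE, after ±) from limma, and adjusted p values are Benjamini-Hochberg over 18193 genes. A gene was called at an adjusted p below 0.05. An intensity of 48.3, the highest that probe sets for Y-linked genes reached in these female cells, served as the background level. The 6 arrays had 10982 to 11466 genes above background. Line R replicate 2 stood apart, with log2 ratios of the 3' to 5' control probe sets of 0.160 for Gapdh and 0.592 for actin. These ratios were at most -0.298 and 0.292 on the other 5 arrays of the comparison. Fibroblast identity held by its markers, of which 16 of 18 in line R and 17 of 18 in the knockout were above background on all 3 arrays. The summed intensity of these 18 genes ran from 170600 to 235500 in line R and from 192900 to 212300 in the knockout. Endothelial markers summed to 587 to 798 and 514 to 666 in the same order, and mesothelial and epithelial markers to 406 to 476 and 392.2 to 534, with 2 and 1 of 15 above background on all arrays. Skeletal muscle markers summed to 615 to 991 in line R and 567 to 788 in the knockout, and adipocyte markers to 7334 to 7725 and 6366 to 9465. Bone and cartilage markers summed to 1293 to 1849 in line R and 902 to 1101 in the knockout, without overlap, although 0 of 8 were called and 5 lay below background in both lines. Neural and glial markers summed to 2854 to 5442 in line R and 2342 to 3105 in the knockout, with Map2 called higher, 1 of 11. The part of these lists in the results was not tested. Macrophage and blood markers summed to 535 to 620 in line R and 706 to 791 in the knockout. Ptprc, Tyrobp and Itgam were below background in both lines, and Cd14 was the 1 gene of that list that was called, lower in line R. Of the 10 markers, however, 7 had a positive difference and 3 a negative one, with a median of 0.48. In line R 4 of them were above background on all arrays, and in the knockout 2. In whole cultures, fewer cells of a type and less RNA per cell cannot be told apart.

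Akt1 itself did not separate the lines by its brightest probe set. This probe set read 28.0, 19.9 and 20.5 in line R and 37.1, 9.56 and 17.5 in the knockout at 24 h, all below background (0.29 ± 0.87, adjusted p = 0.92), against a geometric mean of 3035 in the wild-type line at 24 h. The second Akt1 probe set read 33.5, 75.8 and 15.7 in line R and 3.84, 4.05 and 18.5 in the knockout. One array of line R alone exceeded background there, the adjusted p over all probe sets was 0.129, and the wild-type line averaged 2296. In untreated cells the same probe set differed by 4.56 (adjusted p = 0.00418) and at 4 h by 2.64 (adjusted p = 0.112). The next probe set went the other way, at 37.6, 44.5 and 29.4 in line R against 76.9, 61.6 and 78.8 in the knockout (-0.98 ± 0.28, adjusted p = 0.066 over probe sets). In untreated cells that probe set differed by 0.11 (adjusted p = 0.939) and at 4 h by 1.32, higher in line R (adjusted p = 0.0174). The last one was below background in all lines, with means of 7.68 in line R, 7.24 in the knockout and 9.84 in the wild-type line. On none of the 3 probe sets above background in the wild-type line did the line labelled R reach its level, and where the probe sets lie relative to a reintroduced sequence is not given in the sources used here. The gene of the sister kinase PKBbeta, Akt2, read 648, 661 and 867 in line R and 685, 751 and 710 in the knockout (0.01 ± 0.14, adjusted p = 0.99).

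At 24 h, 959 genes were called between line R and the knockout, which is 5.27% of all genes tested. Of these, 577 (3.17%) were higher and 382 (2.1%) lower in line R, and 439 (2.41%) differed by more than 2-fold, 266 higher (1.46%) and 173 lower (0.951%). In 43 of the called genes (0.236%) both groups lay below background, so no fold is given for those. The 3 arrays of line R did not overlap the 3 of the knockout in 24.1% of all genes, 14.2% with line R higher and 9.86% with it lower. The split by direction depended on the scaling. With equal array medians 191 genes were higher and 477 lower, because every difference moves by the same amount and the median over all genes becomes -0.147 in place of 0.0576. The calls also lean on the spread estimated over all 27 arrays. A fit on the 6 arrays alone called 28 genes, 6 higher and 22 lower, and with the replicate number as a block in that fit it called 0, with 2406 at an unadjusted p under 0.05. Among the 28 were Saa3, Mmp2, Mmp3, Apoe, Hp, Ctsk, Cyp1b1, Ptges, Lipo3 and Kcne4, lower in line R, and Amy1 and Oasl2, higher. The count over all genes was 529 without line R replicate 2, 559 without its replicate 0, 558 without its replicate 1, 427 without knockout replicate 0 and 601 without knockout replicate 2.

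Some of the calls described below lie close to the threshold and end under an alternative, most of them with much the same difference. Without replicate 2 of line R the adjusted p lay between 0.0538 and 0.204 for Fgf5, Cxcl2, Il6, Tnfaip3, Pla2g4a, Fdps, Ebp, Dhcr7, Timp1, Mmp9, Fbn2, Col12a1, Fst, Tgfbi, Id4, Igfbp3, Ereg, Spry2, Fos, Nr4a2, Ier3, Rptor, Tsc2, Oasl2, Bst2, Ephx1, Kif11, Trp53bp1, Brca1, H2ax, Notch3, Lfng, Sfrp2, Ror2, Zfyve21, Atp5mpl, Siva1 and Map2. All of these kept their direction and, but for Atp5mpl (-0.60 in place of -0.92), a difference within 1.5 times of the reported one. When each gene's probe sets were averaged, Ebp, Fos, Bst2, Ephx1, H2ax and Ccn2, which have 1 probe set and so the same difference, had an adjusted p of 0.0502 to 0.062. The difference stayed within 1.5 times, with an adjusted p of 0.0687 to 0.51, for Tnfaip3, Msmo1, Cyp51, Timp3, Col12a1, Dcn, Fbln5, Inhba, Egfr, Gas6, Nr4a2, Rptor, Ddx58, Rsad2, Trp53bp1, Gstm1, Notch3, Lfng, Ror2, Zfyve21 and Siva1. It changed more for Scara5, Fgf5, Ndn, Fdps, Fdft1, Scd2, Tgfbr2, Igfbp7, Spry2, Pik3cd, Kif11, Brca1 and Robo1, whose adjusted p was 0.073 to 0.951, and Pik3cd turned in direction.

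Genes picked for description among those well above the knockout in line R encode signalling, iron-handling, muscle-related and secreted proteins. They are not the full top of the list. With the replicate block, Abcc2 (4.53) and Ppm1e (4.02), for example, differed by more than Slc40a1, Mef2c or Itm2a. Nrk, which encodes a kinase of the germinal centre kinase family, read 596, 506 and 501 in line R, against 23.1, 46.7 and 7.80 in the knockout, all 3 below background. It was at least 11.03-fold higher in line R (adjusted p = 7.5e-05). Scara5, which encodes a ferritin receptor, read 626, 483 and 288 in line R and 24.9, 52.0 and 18.5 in the knockout (3.94 ± 0.71, adjusted p = 0.0027). With the mean of both its probe sets Scara5 was no longer called (1.84, adjusted p = 0.206). Slc40a1, the iron exporter ferroportin, read 718, 658 and 707 in line R and 86.5, 210 and 121 in the knockout (2.42 ± 0.47, adjusted p = 0.0046). Both iron-handling genes were thus higher on every array of line R than on any of the knockout. Ppargc1a, a coactivator of mitochondrial gene expression, read 200, 180.4 and 138 in line R, and 2.33, 31.4 and 18.6 in the knockout, below background. It was at least 3.53-fold higher in line R. Mef2c, a muscle and vascular transcription factor, read 841, 770 and 1212 in line R and 107, 217 and 158 in the knockout (2.58 ± 0.51, adjusted p = 0.0057), while the wild-type line averaged 14.6, below background. Itm2a, a membrane protein gene, read 3373, 3237 and 2382 in line R and 503, 905 and 513 in the knockout (2.27 ± 0.29, adjusted p = 0.00013). Synm, which encodes the intermediate filament protein synemin, was at least 2.67-fold higher, and Amy1, an amylase gene, at least 2.94-fold. Some of the largest differences rest on dim values. Fgf5 read 55.9, 53.1 and 39.3 in line R and 2.87, 13.7 and 1.79 in the knockout, so 2 arrays in all were above background, and it was not called without replicate 2 of line R (adjusted p = 0.0622).

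**Figure D1:**
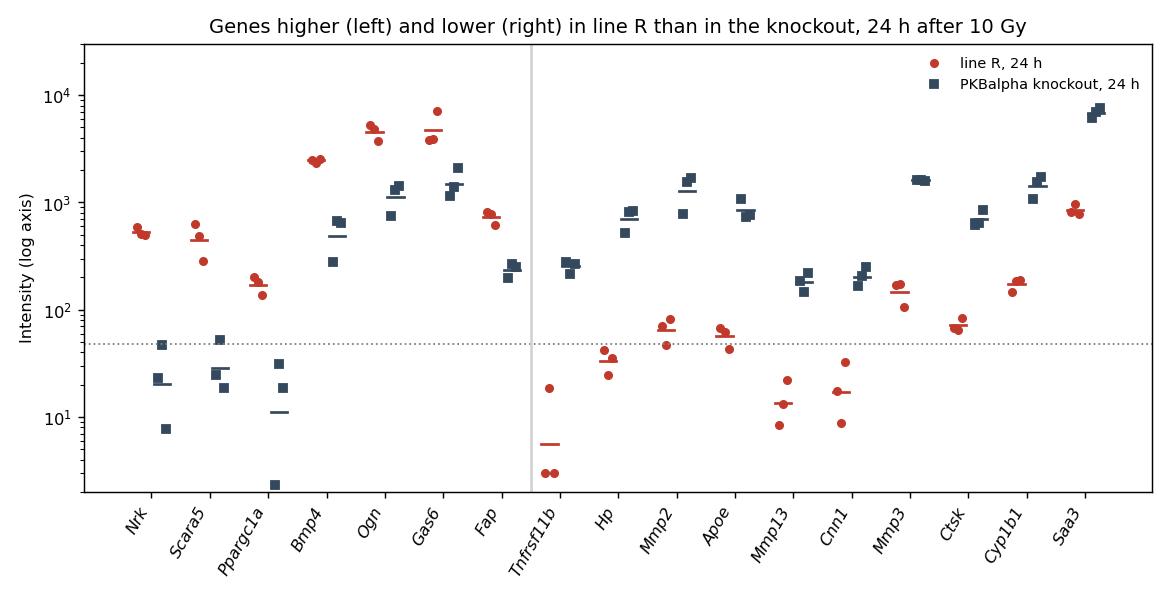
Intensity on a log axis of 17 genes past the threshold, with 3 arrays of line R (circles) left of 3 arrays of the knockout (squares) for each gene, 24 h after 10 Gy. Short bars are geometric means, and the dotted line is the background level of 48.3. No gene shown has overlapping groups, and Tnfrsf11b, Hp, Mmp13 and Cnn1 lie below background on all 3 arrays of line R.

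The smallest p values among the higher genes belonged to moderate, tight differences. Hunk, a kinase gene, read 440, 498 and 325 in line R and 89.4, 122 and 90.4 in the knockout (2.06 ± 0.18, adjusted p = 1.6e-06). Gpx7, an endoplasmic reticulum peroxidase gene, read 3156, 3238 and 2590 in line R and 1148, 1365 and 1143 in the knockout (1.29 ± 0.14, adjusted p = 1.9e-05). For Nthl1, which encodes a base excision repair glycosylase, the values were 1718, 1716 and 1659 in line R and 826, 870 and 858 in the knockout (1.00 ± 0.11, adjusted p = 2.9e-05). Nthl1 arrays differed by only a few percent within each line, so a 2-fold difference stood far outside their spread. The imprinted gene Ndn, which encodes necdin, was also higher (1.55 ± 0.17, adjusted p = 3.3e-05), although the mean over its 8 probe sets was not called (0.84, adjusted p = 0.073).

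Among the genes lower in line R, secreted proteases, lipid and acute phase carriers and the lysosomal proteases Ctsk and Ctsc stood out by size. Hp, which encodes the haemoglobin-binding protein haptoglobin, read 41.8, 24.5 and 35.7 in line R, below background, and 522, 819 and 835 in the knockout. It was at least 14.7-fold lower in line R (adjusted p = 0.00018). Apoe, the lipid carrier apolipoprotein E, read 67.6, 62.0 and 43.2 in line R and 1072, 734 and 772 in the knockout (-3.90 ± 0.31, adjusted p = 6.9e-07), with a wild-type mean of 4223. Tnfrsf11b, which encodes osteoprotegerin, a decoy receptor for the osteoclast factor RANKL, read 3.04, 18.8 and 3.03 in line R and 282, 217 and 269 in the knockout, at least 5.26-fold lower (adjusted p = 0.004). In line R all 3 genes lay at or below about the background level, and every knockout array was well above it. The lysosomal collagenase gene Ctsk read 67.2, 65.2 and 84.1 in line R and 618, 638 and 856 in the knockout (-3.28 ± 0.26, adjusted p = 6.5e-07). Line R lay close to the wild-type mean of 47.4 for Ctsk, whereas for the protease gene Ctsc, at least 4.04-fold lower in line R, the wild-type mean was 1098. Lysosome genes as a list did not lean this way. Of 20 measured, 2 were higher and 1 lower, against 3.17% and 2.1% of all genes, with a median of -0.01. Without replicate 2 of line R these counts were 1 and 2. Cyp1b1, which encodes a cytochrome P450 that hydroxylates steroids and aromatic hydrocarbons, read 148, 187 and 188 in line R and 1084, 1565 and 1721 in the knockout (-3.05 ± 0.26, adjusted p = 1.1e-06), against 10170 in the wild-type line.

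Inflammatory genes formed one of the clearest groups, and NF-kappaB is the transcription factor that drives many of them after cytokines or damage. Of 26 measured chemokine and NF-kappaB genes, 7 were lower in line R and 0 higher, against 2.1% and 3.17% of all genes. In untreated cells 5 of the 26 were lower, against 1.62% of all genes, and at 4 h 5 were, against 1.52%. The median of the list was -0.79, beside 0.06 for all genes. In 13 of the 26 the arrays did not overlap and line R was lower, against 9.86% of all genes. Without replicate 2 of line R, 4 were lower and the median was -0.58. Saa3, an acute phase serum amyloid gene, read 812, 975 and 784 in line R and 6116, 6926 and 7651 in the knockout (-3.01 ± 0.14, adjusted p = 1.8e-10). It had the smallest p among the lower genes, and the wild-type line stood higher still at 18120. The cytokine gene Il6 read 904, 861 and 218 in line R and 4753, 2179 and 2876 in the knockout (-2.49 ± 0.68, adjusted p = 0.037), with the lowest value on replicate 2 of line R and an adjusted p of 0.19 without it. The neutrophil chemokine gene Cxcl2 read 29.3, 27.4 and 9.78 in line R, below background, and 96.3, 156 and 107 in the knockout (adjusted p = 0.026). Cxcl16 read 131, 134 and 97.1 in line R and 302, 341 and 400 in the knockout (-1.53 ± 0.21, adjusted p = 0.00021). Ccl8, a monocyte chemokine gene, and the NF-kappaB regulators Nfkbiz and Tnfaip3 completed the lower group. Nfkbiz read 1120, 1247 and 1079 in line R and 2970, 2480 and 2625 in the knockout (-1.23 ± 0.20, adjusted p = 0.0014). Not every chemokine moved. Cxcl1, a relative of Cxcl2, read 9830, 9276 and 5497 in line R and 9759, 9418 and 8166 in the knockout (-0.19 ± 0.38, adjusted p = 0.86). The gene of the NF-kappaB inhibitor Nfkbia had a difference of 0.01 (adjusted p = 0.97).

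RefSeq promoter windows (GRCm38.p6, 250 bases before to 50 after the start) were given for 5 of the 7 lower genes. One form of the NF-kappaB site, GGG and TTTCC with any 2 bases between them, was searched on both strands. A match was found for 3 of these 5 genes (Cxcl2, Il6 and Tnfaip3) and for 4 of 13 other members with a window. Among all 14452 measured genes with a window the share was 1.89%. The following stretches, shown because Cxcl2 and Il6 are the cytokine genes of this list with a match, lie before the start and have the match in capitals. The Cxcl2 stretch holds a further match, 68 bases before the start, which is left in lower case. The stretches are from chr5:90903772-90903841, plus strand, and chr5:30013040-30013109, plus strand.
Cxcl2: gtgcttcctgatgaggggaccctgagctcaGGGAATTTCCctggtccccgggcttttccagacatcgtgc
Il6: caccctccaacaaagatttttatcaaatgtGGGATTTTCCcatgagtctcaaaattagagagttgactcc
Saa3 and Ccl8 had no match in their windows. A match is a run of letters and does not show binding.

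Prostaglandin enzymes were among the genes lower in line R. These lipid mediators are made from arachidonic acid, which phospholipase A2 releases, cyclooxygenase oxidises and terminal synthases convert. Of 9 measured genes, 4 were lower in line R and 0 higher, against 2.1% and 3.17% of all genes, with a list median of -1.18, and 4 lay below background in both lines. Pla2g4a, the releasing phospholipase, read 2447, 2329 and 1281 in line R and 5575, 3752 and 4096 in the knockout (-1.18 ± 0.32, adjusted p = 0.035, and 0.176 without replicate 2 of line R). Ptgs2, the inducible cyclooxygenase, read 1098, 1079 and 677 in line R and 8045, 2571 and 3454 in the knockout (-2.16 ± 0.43, adjusted p = 0.0059). The prostaglandin E synthase gene Ptges read 33.7, 40.2 and 25.5 in line R, below background, and 302, 361 and 275 in the knockout, at least 6.43-fold lower (adjusted p = 0.0018). Each step from release to prostaglandin E2, and its receptor gene Ptger4 (-1.06 ± 0.21, adjusted p = 0.0049), therefore had a gene that was lower in line R. Il1rn, the interleukin 1 receptor antagonist gene, which limits the same kind of response, was lower too, at 107, 123 and 51.4 in line R and 743, 967 and 841 in the knockout (-3.27 ± 0.49, adjusted p = 0.00058).

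Where genes of cholesterol synthesis passed the test, they were lower in line R. The pathway builds isoprenoid units from acetyl-CoA through mevalonate, joins them to squalene, closes the ring to lanosterol and trims lanosterol to cholesterol, and SREBP2 drives its genes when sterol runs low. Of 19 measured genes, 10 were lower in line R and 0 higher, against 2.1% of all genes lower, and 18 had a negative difference. The list median was -0.61, beside 0.06 for all genes. Each of the 19 had a mean above background in line R, the knockout or both. Non-overlapping arrays with line R lower were found in 13, against 9.86% of all genes. The count was 7 without replicate 2 of line R, 9 with equal array medians and 5 with the mean of all probe sets, with list medians of -0.66, -0.81 and -0.60. Fdps, for example, differed by -0.17 by the mean of its probe sets (adjusted p = 0.951). In untreated cells 5 of the 19 were lower and at 4 h 4 were, with medians of -0.51 and -0.59.

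**Figure D2:**
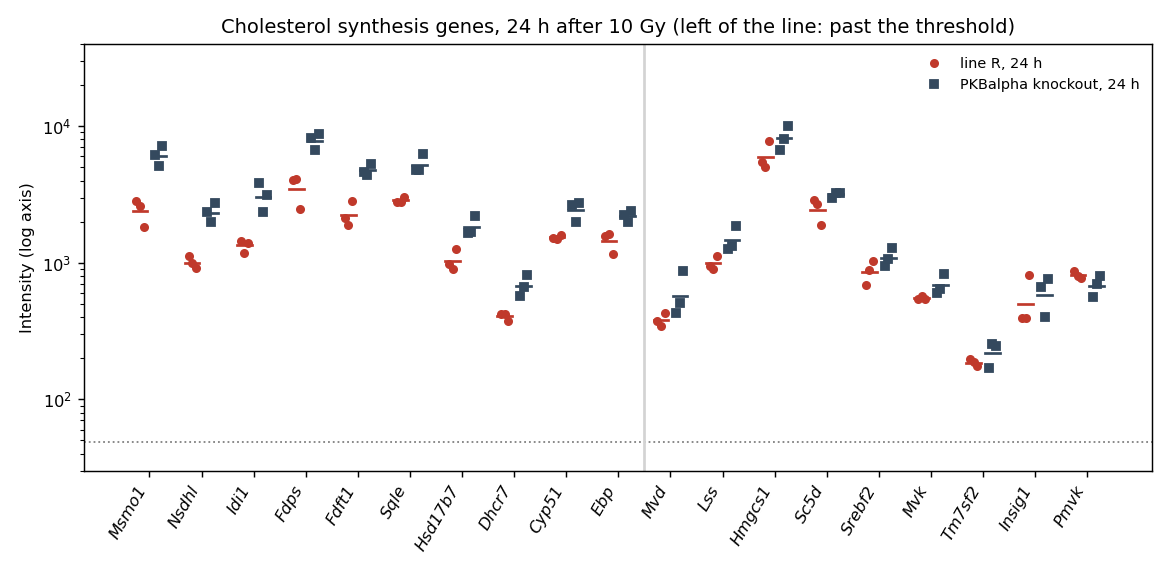
Intensity on a log axis of 19 cholesterol synthesis genes, with 3 arrays of line R (circles) left of 3 arrays of the knockout (squares), in order of the difference. Short bars are geometric means and the dotted line is the background level. The 10 genes left of the vertical line passed the threshold, and Pmvk alone has a higher mean in line R.

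Along the route to lanosterol, Idi1, which isomerises the isoprenoid unit, read 1454, 1186 and 1393 in line R and 3837, 2347 and 3136 in the knockout (-1.18 ± 0.26, adjusted p = 0.01). Fdps, which makes farnesyl diphosphate, read 4047, 4135 and 2486 in line R and 8211, 6698 and 8767 in the knockout (-1.18 ± 0.30, adjusted p = 0.026). Squalene synthase, Fdft1, read 2140, 1875 and 2850 in line R and 4656, 4393 and 5298 in the knockout (-1.08 ± 0.20, adjusted p = 0.0028). The second Fdft1 probe set gave -1.16 ± 0.18, and the mean over 4 probe sets, of which the other two were below background, was not called (-0.36, adjusted p = 0.561). Squalene epoxidase, Sqle, read 2772, 2808 and 3044 in line R and 4760, 4759 and 6223 in the knockout (-0.86 ± 0.12, adjusted p = 0.00024). After lanosterol, Cyp51, Msmo1, Nsdhl, Hsd17b7, Ebp and Dhcr7 were all lower, from -0.61 for Ebp to -1.35 for Msmo1. Msmo1, the sterol C4-methyl oxidase, read 2851, 2624 and 1815 in line R and 6169, 5110 and 7142 in the knockout (adjusted p = 0.0062). Its partner in demethylation Nsdhl read 1115, 989 and 918 in line R and 2340, 1994 and 2719 in the knockout (-1.22 ± 0.21, adjusted p = 0.0019). The early enzymes gave smaller values that did not pass, among them Hmgcs1 (-0.45, adjusted p = 0.37) and Mvk (-0.31, adjusted p = 0.45), as did the regulators Srebf2 (-0.35, adjusted p = 0.44) and Insig1 (-0.22, adjusted p = 0.77). The letters TCACNCCAC, one form of the sterol regulatory element, were found for 0 of the 7 lower genes with a window (1.46% of all measured genes with one). CCAAT, the letters that the partner factor NF-Y binds, was found for 7 of these 7, for 9 of 9 other members and for 42% of all measured genes with a window. No match says only that these letters are not in this window.

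In fatty acid synthesis the desaturases alone passed the threshold, 3 of 16 genes, all lower, against 2.1% of all genes. Fads2, which starts the desaturation of polyunsaturated fatty acids, read 1320, 1231 and 1274 in line R and 2356, 2789 and 3387 in the knockout (-1.14 ± 0.16, adjusted p = 0.00023). Scd1 and Scd2, which make monounsaturated fatty acids, were lower by smaller amounts (-0.80 ± 0.14 and -0.51 ± 0.10). Fasn, the synthase itself, had a difference of 0.03 (adjusted p = 0.98) and Srebf1 of 0.07 (adjusted p = 0.9). Fads2, Scd1 and Scd2 all lie on chromosome 19, whose genes as a whole had lower values in line R.

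Matrix proteases were among the genes with the smallest p values. Of 19 measured proteases and inhibitors, 4 were lower and 2 higher, against 2.1% and 3.17% of all genes. Without replicate 2 of line R these counts were 3 and 1. Mmp2, gelatinase A, read 71.4, 47.3 and 81.6 in line R and 789, 1540 and 1693 in the knockout (-4.29 ± 0.37, adjusted p = 1.1e-06), with 1 array of line R below background. Mmp3, stromelysin 1, read 169, 176 and 107 in line R and 1617, 1613 and 1591 in the knockout (-3.45 ± 0.31, adjusted p = 1.7e-06). Mmp13, collagenase 3, read 8.43, 13.3 and 22.1 in line R, below background, and 185, 146 and 220 in the knockout, at least 3.75-fold lower (adjusted p = 0.00026). Mmp3 and Mmp13 read 6561 and 1049 in the wild-type line, above both other lines, and Mmp2 read 1031 there. The inhibitor genes went opposite ways. Timp1 read 4353, 4454 and 4844 in line R and 9909, 7569 and 8917 in the knockout (-0.94 ± 0.26, adjusted p = 0.037), while Timp3 read 2509, 3011 and 3053 in line R and 1027, 1099 and 1258 in the knockout (1.34 ± 0.20, adjusted p = 0.00045). Mmp9, gelatinase B, was higher at 145, 154 and 134 in line R and 34.1, 39.2 and 104 in the knockout (1.48 ± 0.38, adjusted p = 0.028), with 1 knockout array above background.

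Among 22 collagen chains, 3 were lower and 0 higher, against 2.1% and 3.17% of all genes. Col4a1 and Col4a2, the pair that forms the common collagen IV of basement membranes, differed by about the same amount. Col4a1 read 674, 734 and 1610 in line R and 4031, 3688 and 5585 in the knockout (-2.23 ± 0.40, adjusted p = 0.0027), and its second probe set gave -2.48. Col4a2 read 297, 360 and 722 in line R and 1411, 1637 and 2245 in the knockout (-2.02 ± 0.35, adjusted p = 0.0022). In both genes replicate 2 of line R read highest of its group, still below every knockout array. The pair lies head to head, and the RefSeq promoter windows of 300 bases, on opposite strands, share 78 bases. Col12a1, a fibril-associated chain, was lower by less (-0.77 ± 0.22, adjusted p = 0.046), and not without replicate 2 of line R (adjusted p = 0.204). The fibrillar chains Col1a1 (0.15, adjusted p = 0.84), Col1a2 (-0.04, adjusted p = 0.94) and Col3a1 (-0.16, adjusted p = 0.51) gave small values, and Col1a1 ran from 14380 to 25400 in line R and 13580 to 18300 in the knockout. Of 32 other matrix genes, 2 were higher and 3 lower, against 3.17% and 2.1% of all genes. Without that array these counts were 1 and 3. The small proteoglycan genes Ogn and Dcn went opposite ways, with Ogn at 5318, 4847 and 3721 in line R and 752, 1302 and 1437 in the knockout (2.03 ± 0.34, adjusted p = 0.0015). Dcn read 1890, 1769 and 1162 in line R and 2895, 5397 and 4258 in the knockout (-1.37 ± 0.27, adjusted p = 0.0058). Among elastic fibre genes, Mfap5 (-1.67 ± 0.25) and Fbln5 (-1.14 ± 0.24) were lower and Fbn2 was higher (1.45 ± 0.39). Sulf2 and Sulf1, extracellular sulfatases that trim heparan sulfate, also differed in opposite directions, Sulf2 at 2611, 2449 and 1257 in line R against 174, 701 and 471 in the knockout, and Sulf1 at 103, 124 and 112 in line R against 599, 495 and 693 in the knockout (2.38 ± 0.49 and -2.39 ± 0.23).

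Contractile genes of smooth muscle, which fibroblasts use when they become contractile, had 3 of 13 lower and 0 higher. Among all genes 2.1% were lower and 3.17% higher. Without replicate 2 of line R 4 of the 13 were lower. Cnn1, calponin, read 17.3, 8.87 and 32.6 in line R, below background, and 166, 204 and 251 in the knockout, at least 4.22-fold lower (adjusted p = 0.00045). Actg2, gamma smooth muscle actin, read 295, 291 and 706 in line R and 3321, 1895 and 3918 in the knockout (-2.89 ± 0.54, adjusted p = 0.0036). Myl9, a myosin light chain, differed by -1.05 ± 0.29 (adjusted p = 0.039, and 0.0502 with the replicate block). For Actg2 the wild-type line averaged 104 and for Cnn1 1686, so the wild-type level lay on different sides of the pair. Acta2 (-0.43, adjusted p = 0.21) and Tagln (-0.60, adjusted p = 0.27), the most used markers of this programme, did not pass. The summed intensity of the 13 genes was 61740 to 102700 in line R and 84120 to 106500 in the knockout.

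**Figure D3:**
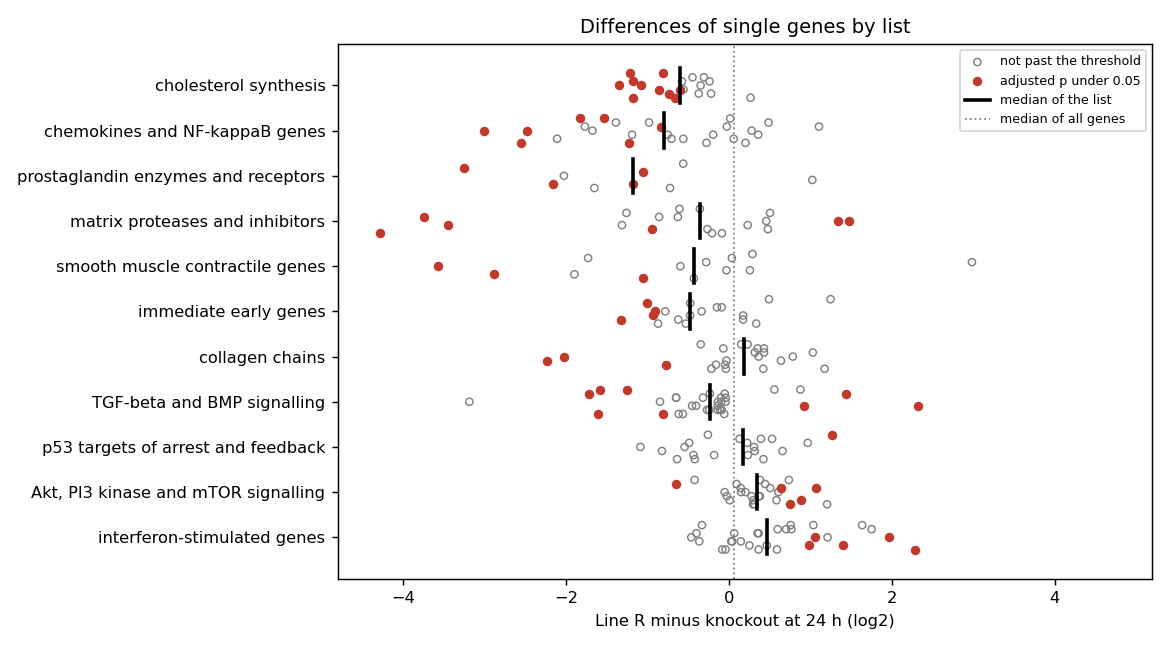
Line R minus knockout at 24 h (log2) for each measured gene of 11 lists, filled where the adjusted p was under 0.05 and open otherwise. Thick bars are list medians, and the dotted line is the median of all genes at 0.06. The cholesterol, chemokine and prostaglandin lists have called genes on the lower side alone, and the interferon list on the higher side alone.

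Called growth factor and TGF-beta superfamily genes differed in both directions. In the TGF-beta and BMP list, 3 of 33 genes were higher and 5 lower, against 3.17% and 2.1% of all genes. Without replicate 2 of line R these counts were 3 and 3. A negative difference was found in 28 of the 33, beside 8250 of all 18193 genes. The list median was -0.24 at 24 h and -0.21 both untreated and at 4 h. The ligand gene Bmp4 read 2506, 2348 and 2555 in line R and 277, 670 and 643 in the knockout (2.33 ± 0.29, adjusted p = 0.00013), with a wild-type mean of 7992. Tgfb2, another ligand, read 1089, 1144 and 1739 in line R and 467, 450 and 521 in the knockout (1.44 ± 0.22, adjusted p = 0.00068). The receptor Tgfbr2 was higher by its brightest probe set (0.92 ± 0.16, adjusted p = 0.0017) and not by the mean of its 3 (0.23, adjusted p = 0.907). The ligand gene Inhba, which encodes the activin A chain, was lower at 1045, 1033 and 1668 in line R and 3781, 1961 and 3270 in the knockout (-1.25 ± 0.29, adjusted p = 0.017). Its antagonist follistatin, Fst, was lower as well, at 373, 391 and 240 in line R and 1296, 802 and 961 in the knockout (-1.61 ± 0.42, adjusted p = 0.03). Of the TGF-beta target genes, Tgfbi (-0.81 ± 0.20) and Ccn2 (-1.59 ± 0.45) were lower, Ccn2 with overlapping arrays and an adjusted p of 0.0574 with the replicate block, and the BMP target Id4 was lower (-1.72 ± 0.43). The BMP targets Id1, Id2 and Id3 had differences of -0.14, -0.09 and -0.32 and did not pass.

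Of 30 IGF axis and growth factor genes, 2 were higher and 5 lower, against 3.17% and 2.1% of all genes. Without replicate 2 of line R these counts were 1 and 2. Egfr, the epidermal growth factor receptor, read 191, 170 and 193 in line R and 324, 351 and 384 in the knockout (-0.94 ± 0.13, adjusted p = 0.00024), against 1231 in the wild-type line. Its ligand gene Ereg read 142, 153 and 121 in line R and 775, 415 and 402 in the knockout (-1.87 ± 0.44, adjusted p = 0.016, and 0.0604 without replicate 2). Receptor and ligand were both lower, as were 2 genes that ERK signalling induces to restrain itself, of 9 in that list (1 without replicate 2). Dusp6, an ERK phosphatase, read 179, 170 and 279 in line R and 678, 368 and 699 in the knockout (-1.45 ± 0.28, adjusted p = 0.0046). Spry2 was lower by its brightest probe set (-1.02 ± 0.25, adjusted p = 0.022) and not by the mean of both (-0.16, adjusted p = 0.938). Of 18 immediate early genes, which growth factors and stress induce within minutes, 4 were lower and 0 higher, against 2.1% and 3.17% of all genes. Without replicate 2 of line R 1 was lower. That gene was Nr4a1, an orphan nuclear receptor, at 364, 396 and 359 in line R and 1033, 750 and 1064 in the knockout (-1.33 ± 0.25, adjusted p = 0.0037). The others were Fos, Nr4a2 and Ier3, and Fos read 241, 253 and 182 in line R and 380, 415 and 569 in the knockout (-1.005 ± 0.28, adjusted p = 0.042, and 0.0541 with the replicate number as a block). Among IGF binding proteins, Igfbp3 was lower at 152, 197 and 55.0 in line R and 473, 607 and 697 in the knockout (-2.31 ± 0.55, adjusted p = 0.019). Igfbp7 was lower by its brightest probe set (-0.65 ± 0.19, adjusted p = 0.048, and 0.0593 with the replicate block) and not by the mean of its 3 (-0.20, adjusted p = 0.78). Gas6, ligand of the TAM receptors, had the largest positive difference of the IGF axis and growth factor list. It read 3802, 3881 and 7136 in line R and 1153, 1407 and 2092 in the knockout (1.65 ± 0.28, adjusted p = 0.0016).

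In the pathway of PKBalpha itself, 4 of 26 genes were higher and 1 lower, against 3.17% and 2.1% of all genes. A positive difference was found in 22 of the 26, beside 9943 of all 18193 genes. The list median was 0.34, 0.27 after quantile normalization and 0.14 with equal array medians, where the median of all genes was -0.147. Pik3r3, a regulatory subunit of PI3 kinase, read 1091, 1042 and 1016 in line R and 428, 635 and 463 in the knockout (1.07 ± 0.13, adjusted p = 0.00013). The PKB phosphatase gene Phlpp1 read 655, 630 and 620 in line R and 1015, 989 and 995 in the knockout (-0.65 ± 0.13, adjusted p = 0.0052). These 2 genes kept their calls without replicate 2 of line R (adjusted p = 0.000669 and 0.0224). Pik3cd, a catalytic subunit, was higher by its brightest probe set (0.88 ± 0.22, adjusted p = 0.026), but the mean over its 6 probe sets turned the sign (-0.28, adjusted p = 0.807). Rptor and Tsc2, parts of mTOR complex 1 and of its brake, were higher by 0.75 ± 0.19 and 0.63 ± 0.17 (adjusted p = 0.029 and 0.033), Rptor with an adjusted p of 0.154 without replicate 2. Of 19 FOXO factors and targets, 0 passed in either direction, with a median of -0.05. Foxo1 differed by 0.68 and Foxo3 by 0.60 (adjusted p = 0.073 and 0.45), and the targets Pdk4 and Fbxo32 by -1.27 and -0.998 (adjusted p = 0.072 and 0.22).

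Interferon-stimulated genes went the opposite way to the NF-kappaB group. These genes answer type I interferon through the factor complex ISGF3, and include the sensors of viral RNA that can start that signal. Of 29 measured genes, 5 were higher in line R and 0 lower, against 3.17% and 2.1% of all genes, with a list median of 0.46. The count was 4 without replicate 2 of line R, 2 by each gene's mean over its probe sets, 3 after quantile normalization and 1 with equal array medians, where the list median was 0.26. The sensor gene Ifih1 (MDA5) read 587, 518 and 444 in line R and 125, 281 and 208 in the knockout (1.40 ± 0.34, adjusted p = 0.019). Ddx58, which encodes RIG-I, read 926, 1113 and 840 in line R and 349, 517 and 528 in the knockout (1.06 ± 0.21, adjusted p = 0.0052). Of the effector genes, Oasl2 read 201, 214 and 218 in line R and 53.6, 40.9 and 37.5 in the knockout (2.28 ± 0.56, adjusted p = 0.022), with 1 knockout array above background. Rsad2, which encodes viperin, read 182, 172 and 100 in line R and 26.7, 47.4 and 41.7 in the knockout, below background, at least 3.03-fold higher (adjusted p = 0.035). Bst2, which encodes tetherin, read 399, 416 and 289 in line R and 164, 268 and 142 in the knockout (0.98 ± 0.28, adjusted p = 0.049, and 0.066 with the replicate block). The higher genes did not include the interferon targets Ifit1 (0.04), Ifit3 (0.35), Irf7 (0.46) or Stat2 (-0.40), whose adjusted p ran from 0.61 to 0.98. In untreated cells 3 of the 29 were higher and 0 lower, against 2.18% and 1.62% of all genes, with a list median of 0.43. These were Ifih1, Ddx58 and Rsad2. At 4 h 3 were higher (Ifih1, Ddx58 and Oasl2) and 1 lower (Ifit2), against 1.86% and 1.52%, with a list median of 0.07. Rsad2 differed by 1.22 at 4 h (adjusted p = 0.28) and Bst2 by 0.13 (adjusted p = 0.91).

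The core of the interferon-stimulated response element, TTTC and TTTC with any 2 bases between them, was in the RefSeq windows of 4 of the 5 higher genes (Rsad2, Bst2, Ddx58 and Ifih1) and of 8 of 20 other members with a window. Searched on either strand, it was found for 3.63% of the 14452 measured genes with a window. The stretches shown hold the matches that lie before the start, in capitals, for the effectors Rsad2 (chr12:26456533-26456602, minus strand) and Bst2 (chr8:71537563-71537632, minus strand, where the match is on the opposite strand and overlaps a further one), in GRCm38.p6.
Rsad2: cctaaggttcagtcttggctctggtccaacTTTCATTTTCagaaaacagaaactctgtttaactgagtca
Bst2: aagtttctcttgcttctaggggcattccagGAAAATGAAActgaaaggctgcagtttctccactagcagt
Oasl2, the gene with the largest difference in this list, had no match in its window.

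Few of the p53 targets passed the threshold between the lines. Of 20 p53 targets of arrest and feedback, 1 was higher and 0 lower, close to the share among all genes, and of 9 p53 targets of cell death 0 passed. The arrays did not overlap, however, in 10 of the 20, 6 with line R higher and 4 with it lower. Among all genes 24.1% did not overlap, 14.2% with line R higher and 9.86% with it lower. The p21 cell cycle inhibitor gene, Cdkn1a, read 328, 354 and 153 in line R and 321, 484 and 354 in the knockout (-0.55 ± 0.39, adjusted p = 0.52), against 1857 in the wild-type line. Mdm2, whose product removes p53, read 653, 648 and 241 in line R and 838, 827 and 817 in the knockout (-0.82 ± 0.53, adjusted p = 0.47), and the difference was -0.35 without replicate 2 of line R. Ccng1, cyclin G1, read 2008, 1971 and 2734 in line R and 1957, 1833 and 1562 in the knockout (0.32 ± 0.22, adjusted p = 0.51). For all 3 genes replicate 2 was the outermost array of line R. The arrays of the 2 lines overlapped for Cdkn1a and did not for Mdm2 and Ccng1, and none of the 3 passed. The exception on the list was Ephx1, an epoxide hydrolase gene, at 721, 814 and 786 in line R and 196, 472 and 360 in the knockout (1.26 ± 0.35, adjusted p = 0.041, and 0.106 without replicate 2). Of 29 S phase genes 0 passed and of 31 G2/M genes 1 did, the spindle motor gene Kif11 (-0.52 ± 0.13, adjusted p = 0.02, and 0.108 without replicate 2). The median differences of these lists were -0.20 and -0.20. Of 24 DNA break genes, 3 were higher and 1 lower, against 3.17% and 2.1% of all genes. Xrcc5, which encodes the end-joining protein Ku80, read 1073, 987 and 1158 in line R and 479, 776 and 682 in the knockout (0.76 ± 0.16, adjusted p = 0.01), and it was the 1 of the 4 that also passed without replicate 2 (adjusted p = 0.0472). Trp53bp1 and Brca1 were higher by 0.55 ± 0.14 and 0.38 ± 0.11 (Brca1 with an adjusted p of 0.0597 with the replicate block), and H2ax differed by -0.65 ± 0.18. The BCL2 family (11 genes) and ribosome biogenesis (16 genes) had 0 calls, and all 16 ribosome biogenesis genes had negative differences, with a median of -0.25.

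Smaller groups held single clear genes, and their counts stand beside 3.17% higher and 2.1% lower among all genes. Of 18 NRF2 and glutathione genes, 3 glutathione transferase genes were higher and Cyp1b1 lower, with Gstm1 at 2809, 2934 and 2813 in line R and 1186, 1785 and 1914 in the knockout (0.84 ± 0.18, adjusted p = 0.011). Gstm2 (0.87 ± 0.16) and Gsta4 (1.58 ± 0.34) were the others, and the NRF2 targets Nqo1 (0.30, adjusted p = 0.51) and Hmox1 (-0.49, adjusted p = 0.42) did not pass. In the Notch list 3 of 16 genes were higher, the receptor Notch3 (1.11 ± 0.28), the modifier Lfng (1.18 ± 0.30) and the target Hey1, and 1 without replicate 2. Hey1 read 77.8, 65.8 and 75.9 in line R and 22.8, 8.86 and 25.9 in the knockout, below background, at least 1.51-fold higher (adjusted p = 0.0076), while its differences were -0.93 untreated and -0.38 at 4 h. The secreted Wnt antagonist genes Sfrp1 and Sfrp2 were lower, and of 31 Wnt genes these 2 and 1 higher one, Ror2, passed, Ror2 with an adjusted p of 0.0525 with the replicate block. Sfrp2 read 195, 152 and 116 in line R and 339, 453 and 504 in the knockout (-1.50 ± 0.33, adjusted p = 0.011), and Sfrp1, at least 2.61-fold lower, read 1242 in the wild-type line. Of the adhesion and guidance receptors, the laminin receptor subunit Itga3 (1.59 ± 0.31) and the Slit receptor Robo1 (1.89 ± 0.26) were higher and the collagen receptor subunit Itga1 lower (-1.59 ± 0.27). Robo1 was not called with the mean of its 3 probe sets (0.62, adjusted p = 0.673).

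Most of the differences at 24 h had the same sign in untreated cells and at 4 h. The untreated comparison called 3.79% of all genes, 2.18% higher and 1.62% lower in line R, and the 4 h one 3.38%, 1.86% higher and 1.52% lower. Of the 959 genes called at 24 h, 478 were among the 690 called between the untreated lines, which is 49.84% of the 24 h list and 69.28% of the untreated one, and 477 of these had the same direction. With the 4 h comparison, which called 615 genes, 405 were shared, 42.23% and 65.85% of the 2 lists, all in the same direction. The 3 comparisons use different arrays of the same 2 lines, and 330 genes (34.41%) were called at all 3 times. The sign was the same for 97.5% of the 959 in untreated cells and 97.6% at 4 h, against 69.64% and 66.26% of all genes. Mmp2 differed by -4.59 untreated, -4.71 at 4 h and -4.29 at 24 h, and Saa3 by -3.24, -3.67 and -3.01. Nrk differed by 4.601, 4.01 and 4.71 at the same times, and Apoe by -3.18, -2.67 and -3.90.

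**Figure D4:**
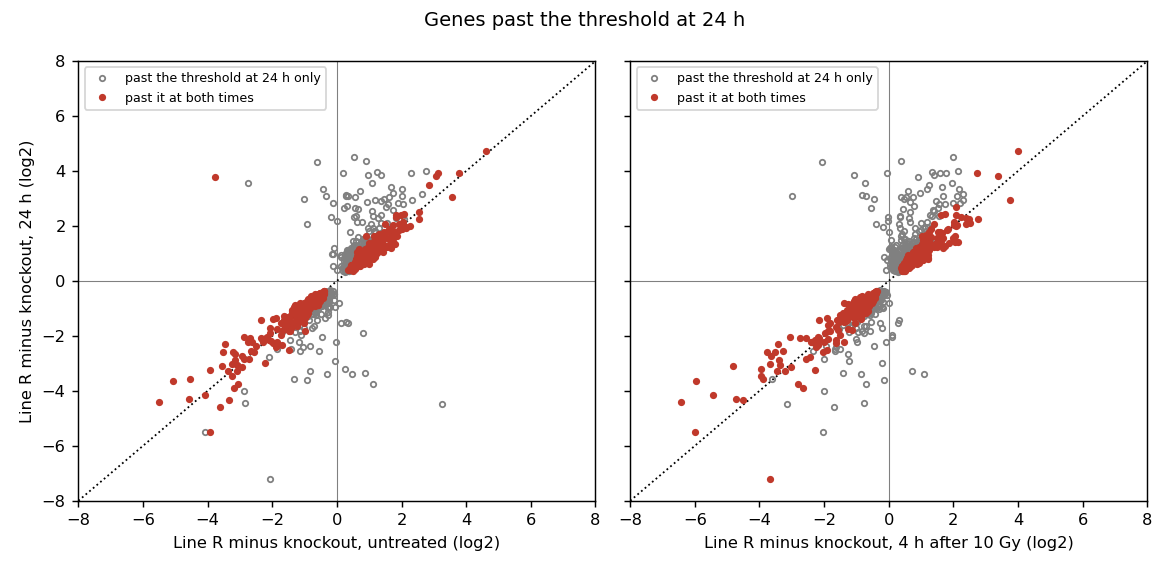
Line R minus knockout at 24 h (vertical) against the same difference in untreated cells (left panel) and at 4 h (right panel), on the log2 scale, for the 959 genes called at 24 h. Filled points passed the threshold at both times and open points at 24 h only, and the dotted line marks equal differences. In the left panel 478 points are filled and in the right panel 405.

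Tested directly, the change of the difference from untreated to 24 h was called for 1 gene, Ang3 (0.0055% of all genes, higher), and the change from 4 h to 24 h for 0 genes. At an unadjusted p under 0.05 there were 544 (2.99%) and 624 (3.43%). With the replicate number as a block the first count was 2. Within line R, 24 h against untreated called 0 genes (830 at an unadjusted p under 0.05, 4.56%), and within the knockout 0 (1064, 5.85%). A gene called at 24 h and not at the other times is not shown to differ between times. Synm, for instance, differed by 3.96 at 24 h and 1.24 in untreated cells, and Il6 by -2.49 and -1.85, without a called change in either.

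Set beside the untreated wild-type and knockout arrays, which none of the 24 h arrays enter, 627 of the 959 genes (65.38%) had the sign of wild type minus knockout, against 55.99% of all genes. The share was 408 of the 577 genes higher in line R (70.71%) and 219 of the 382 lower ones (57.33%), the latter close to that of all genes. The share of all genes was not split by direction. Both differences subtract the same knockout line, although from different arrays, and this alone favours equal signs. The share of all genes also includes those that differ little between the lines. These shares therefore cannot show whether line R lay nearer to the wild type. Among the genes described, levels in the wild-type line at 24 h lay above both other lines for some and below both for others. Mef2c, Ctsk and Actg2 averaged less there than in either of the other lines. Bmp4, Ogn and Timp3 averaged 7992, 6793 and 9976 there, above both other lines, and Saa3, Mmp3, Mmp13, Apoe and Cyp1b1, which were lower in line R, also stood above both.

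The called genes were not spread evenly over the genome, a pattern looked at after the values had been seen. Genes with a mean level above background, 10731 with a place in the RefSeq order (GRCm38.p6), were cut into 216 blocks of about 50 neighbours. Their median difference was 0.04, and 4.85% of them were called higher and 3.27% lower. In 21 blocks the median passed 0.3 in size, 15 upward and 6 downward. All 21 had the same sign in untreated cells and at 4 h, and 16 and 14 of them passed 0.3 there as well. On chromosome 11, the 7 distal blocks from Akap1 to Metrnl (343 genes) had a median of 0.43, with 56 genes higher and 2 lower, while the 11 blocks before them, from Sfi1 to Msi2, had 0.08, with 16 and 9. The 3 arrays of line R gave 0.36, 0.39 and 0.58 for the distal blocks relative to the knockout mean, and the knockout arrays -0.09, 0.06 and 0.03. Chromosome 14 changed sign within itself, at 0.12 over the blocks up to Rpgrip1 and -0.37 over those from Supt16 to Tmtc4 (204 genes, 38 lower and 2 higher). Chromosome 19 as a whole had a median of -0.22, with 37 of 388 genes lower and 4 higher, and chromosomes 4 and 5 had 0.20 and 0.19. On chromosome 17, the block from Zfp53 to Gfer had a median of 0.42, with 11 genes higher and 0 lower.

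**Figure D5:**
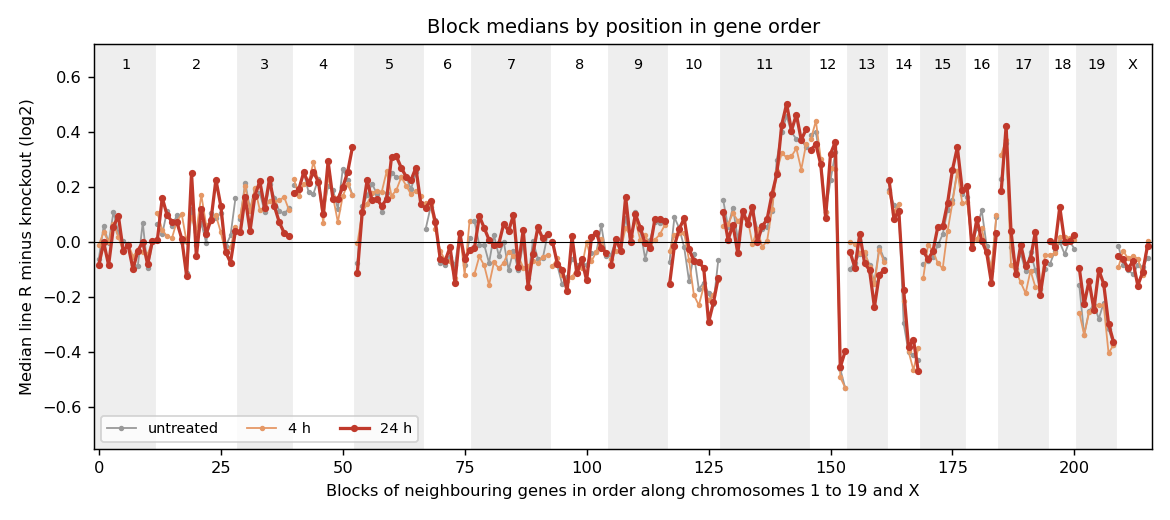
Median of line R minus knockout (log2) over blocks of about 50 neighbouring genes, in gene order along chromosomes 1 to 19 and X (numbers at the top, alternately shaded), untreated, 4 h and 24 h after 10 Gy. The 3 times follow each other closely, with distal chromosome 11 near 0.43 and the end of chromosome 12 near -0.45 at 24 h.

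Chromosome 12, which carries Akt1, was split in the same manner. Its first 6 blocks, up to Ppp4r3a, had a median of 0.26 (283 genes, 38 higher and 9 lower). The last 2, from D130020L05Rik to Sp4, which span the position of Akt1, had -0.45 (94 genes, 22 lower and 2 higher). The shift of the last blocks was -0.49 in untreated cells and -0.51 at 4 h. In the same blocks the knockout lay -0.43 and line R -0.87 from the wild-type line at 24 h. Among the 5 measured neighbours on each side of Akt1, Zfyve21, Atp5mpl, Siva1 and Cdca4 were called lower in line R, Zfyve21 with an adjusted p of 0.0571 with the replicate block. Siva1, a gene of apoptosis signalling, read 1701, 1875 and 1648 in line R and 2130, 2732 and 2933 in the knockout (-0.57 ± 0.15, adjusted p = 0.027), with a wild-type mean of 4281. Cdca4 read 925, 856 and 903 in line R and 1617, 1530 and 1616 in the knockout (-0.83 ± 0.14, adjusted p = 0.0018). Ppp1r13b, also next to Akt1, differed little between line R and the knockout (0.11 ± 0.18) and was lower in both than the 1285 of the wild-type line, at 239 and 221. List genes called and described above were placed in these parts for chromosomes 11, 12 and 14 alone, and only with a mean level above background. Others may lie in shifted blocks too. Rsad2, for example, was not placed, although its stretch shown above is on chromosome 12. Of the genes placed, Itga3, Brca1 and Rptor, higher in line R, lie in the distal part of chromosome 11. Fdft1 and Spry2, lower, lie in the part of chromosome 14 from Supt16 to Tmtc4, and Fbln5, lower, in the last 2 blocks of chromosome 12. Fos, lower, lies in the first 6 blocks of chromosome 12, and Bmp4, higher, in the first 3 of chromosome 14.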

How the data were processed

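RNA on Affymetrix mouse arrays was deposited as linear intensity values for 45101 probe sets. Per the values, the authors scaled each array to a mean of 500.003 after trimming 2% at each end. RMA and GCRMA appear in the submitters' processing notes, with no version or role, and the summary method is not given in the sources used here. Groups were taken from sample titles, and the 27 arrays gave 9 groups of 3. Intensities were taken to log2 without offset or further normalization. Each of 18193 genes was represented by its brightest probe set among those with a single symbol in GEO's annotation (34945 probe sets, 9010 genes with several). Intensity has no read depth, and precision is limited by how many arrays there are. The background was the highest of 243 values of 9 Y-linked probe sets. Where all arrays of the dimmer group lay below it, the fold is a lower bound against it.

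Differences were tested, two-sided, with limma 3.58.1 in R 4.3.3 on 9 group means (18 residual and 1.39 prior degrees of freedom). The test was checked on simulated data with independent normal noise. That check held no array effects, so it cannot show how the test behaves with an array that stands apart. With 3 arrays a group no exact permutation p can go below 0.1, so none was run. Dim genes varied more (median SD 1.44 for the lowest 10% by level, 0.176 for the highest). Same-numbered arrays of the 2 groups had deviations from their group means that correlated at 0.138, 0.181 and 0.395. The replicate numbers, which come from the titles, were used as a block in an alternative fit, and the main fit did not pair arrays. Different-numbered pairs ran from -0.329 to 0.172. Replicate 0 of line R correlated at 0.172 with knockout replicate 1, above its 0.138 with knockout replicate 0. These values therefore do not show that the numbers pair the arrays.

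The comparison, lists and promoter searches were chosen with earlier results of these data known. Genes named were Akt1, Akt2, Cdkn1a, Mdm2 and Ccng1, the 15 largest non-overlapping differences in each direction, the 5 smallest p in each direction and up to 4 of smallest p per list. The text uses part of these, and others were added after their values were seen. Genes that no single-symbol probe set names were not analysed here. Alternatives were a replicate block, the compared arrays only, an intensity trend, level filters, a floor at background, quantile normalization, equal array medians, other uses of probe sets, array weights and leaving out arrays. Of the alternatives, the block within the compared arrays, the floor without line R replicate 2, and those on lists and chromosome blocks were added after seeing the data.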

Additional observations from a re-analysis of the deposited data

Results flagged for a closer look

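Ang3, a gene of the angiogenin family of ribonucleases, was the 1 gene whose difference between line R and the knockout changed from untreated to 24 h by the test of that change (7.57 on the log2 scale, adjusted p = 0.0229). At 24 h it read 30.2, 22.6 and 39.2 in line R and 1.37, 1.59 and 4.55 in the knockout. All 6 values lay below the background level of 48.3, as did the means of the untreated groups, 0.995 in line R and 13.5 in the knockout, so no fold can be read from it. The count of such genes was 0 without line R replicate 0 or 2 at 24 h, without knockout replicate 0 at 24 h, without line R replicate 0 or 1 untreated, and without knockout replicate 1 or 2 untreated.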

How the results depend on the processing

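The count of genes called at 24 h (959) was 28 on the compared arrays only, 0 there with the replicate number as a block, 1919 with array weights and 427 to 748 leaving out 1 array, while with the block on all arrays it was 940, of which 872 were shared. It lay between 668 and 1405 under the other alternatives, within 1.5 times. The untreated count (690) was 16 on the compared arrays, 1173 with array weights and 352 to 596 leaving out 1 array. The 4 h count (615) was 1440 without the 5 arrays that stand apart, 2024 with array weights and 267 to 336 leaving out 1 array. The change from untreated (1 gene) gave 2 with the block, 0 on the compared arrays, 0 above the median level, 5 with a floor at background, 4 without the 5 arrays, 2 with array weights and 0 to 2 leaving out 1 array. The change from 4 h (0 genes, 624 at an unadjusted p under 0.05) gave 5 with the floor and 0 to 1 leaving out 1 array. The cause of these shifts was not tested, beyond the fewer arrays or genes that an alternative holds by construction. Pik3cd turned to -0.28 with the mean of all probe sets. With equal array medians, which lower all differences alike, the chromosome medians turned to -0.09 for the first 3 blocks of chromosome 14, -0.13 for the first 11 of chromosome 11, -0.01 for chromosome 4 and -0.02 for chromosome 5, and the others were 0.23 for distal chromosome 11, 0.06 and -0.65 for the first 6 and last 2 blocks of chromosome 12, -0.57 for the last 4 of chromosome 14 and -0.43 for chromosome 19. With the block, Bst2, Brca1, Ror2, Igfbp7, Fos, Myl9, Ccn2 and Zfyve21 were no longer called (adjusted p 0.0502 to 0.066), and it changed no other 24 h call of a gene described in the text. Of the other above-background probe sets of called genes (748, of 461 genes), 696 had the same direction and 52 the opposite one, of which 0 were called. Signal near background limits the dimmest genes most.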

Other observations

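Of 10 heat shock genes, 2 were lower in line R and 0 higher, against 2.1% and 3.17% of all genes. Without replicate 2 of line R 1 was lower. Hspa1a, which encodes the inducible chaperone HSP70, read 211, 218 and 93.2 in line R and 568, 567 and 485 in the knockout at 24 h (-1.73 ± 0.44, adjusted p = 0.025, and 0.134 without replicate 2 of line R). The chaperone gene Hsp90aa1 was lower by its brightest probe set (-0.44 ± 0.12, adjusted p = 0.042) and not by the mean of its probe sets (adjusted p = 0.326). Among glucose and hypoxia genes, 2 of 24 were higher and 2 lower, against 3.17% and 2.1% of all genes. The neuronal-type glucose transporter gene Slc2a3 read 171, 165 and 177 in line R and 28.8, 68.5 and 32.3 in the knockout (2.10 ± 0.44, adjusted p = 0.009), and the oxygen sensor gene Egln3 was higher too (1.64 ± 0.36), while the glycolytic genes Pgam1 and Pfkp were lower (-0.49 ± 0.11 and -0.53 ± 0.13, Pgam1 with an adjusted p of 0.0572 without replicate 2). By the mean over probe sets Egln3 (1.12, adjusted p = 0.25) and Pfkp (-0.72, adjusted p = 0.076) were not called.

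By their brightest probe sets the imprinted genes Ndn and Plagl1 were higher in line R, although the mean over probe sets was not called for either (0.43 for Plagl1, adjusted p = 0.756). Mest was lower, at 74.4, 94.8 and 44.8 in line R and 195, 423 and 177 in the knockout (-1.84 ± 0.48, adjusted p = 0.03, and 0.136 without replicate 2). Fap, a protease gene of activated fibroblasts, read 824, 774 and 615 in line R and 198, 269 and 250.1 in the knockout (1.62 ± 0.21, adjusted p = 0.00018), and Twist2, a mesenchymal transcription factor gene, was lower (-0.84 ± 0.16, adjusted p = 0.0037).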
